A study of Mus musculus with 12 samples.

Results

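Cacna1a, Cacna1b, Unc80 and Clcn2 are 4 genes of ion channels that set how excitable a neuron is and how much transmitter its terminals release. They were taken by name from the authors' list of N6-methyladenosine (m6A) peaks called differential between the young and the aged mouse hippocampus. Each gene has 1 peak in that list, giving 4 of 529 unique peaks and 4 of 532 gene names. The samples came from male C57BL/6 mice, an inbred strain, with no treatment or altered gene: 3-month-old animals (young) and 20-month-old animals (aged), 3 individual hippocampi of each age, chosen after a qPCR pre-check. Poly(A) RNA was fragmented, pulled down with an antibody against m6A and sequenced (MeRIP-seq). Only the 6 immunoprecipitate libraries have columns in the table, while the 6 libraries of input RNA are not used here. More reads at a peak can therefore stand for more methylation, more transcript or more cells that carry it, among other readings. These cannot be told apart, nor can fewer cells of a type and less RNA per cell. The strength of the pull-down in each library was not tested either.

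m6A is the most frequent internal modification of messenger RNA. It is written during transcription, mostly near stop codons and in long exons, and is read by proteins that act on splicing, decay and translation. Cacna1a and Cacna1b encode the pores of the P/Q-type and N-type voltage-gated calcium channels, which let in the calcium that triggers vesicle fusion at presynaptic terminals. Unc80 encodes a large subunit of the sodium leak channel complex, which carries a steady sodium current at rest. Clcn2 encodes ClC-2, a chloride channel that opens on hyperpolarization and is found in neurons and glia, and mice without it develop vacuoles in myelin.

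All 4 peaks lay in or just before the first exon of a transcript that starts there. For Cacna1a and Clcn2 this is not the outermost start of the gene, since GENCODE begins Cacna1a at 84388440 and Clcn2, on the minus strand, at 20717746. Among all listed peaks, 43.9% carried a 5'UTR or start codon annotation. Positions are on mm10 as deposited, and the deposited table does not say whether starts count from 0 or 1. The Cacna1a peak (chr8:84415573-84415779, plus strand) was annotated as exon, start codon and 5'UTR, with 71 bases before the start codon and 135 bases in the coding part of the first exon of GENCODE transcript Cacna1a-201. The Cacna1b peak (chr2:24762969-24763169, minus strand) had the same 3 annotations, with 17 bases before the start of transcript Cacna1b-202, 105 in its 5'UTR and 78 coding. The Clcn2 peak (chr16:20715990-20716196, minus strand) also carried them, but with 79 bases before the start of transcript Clcn2-201, 122 in its 5'UTR and only 5 coding. The Unc80 peak (chr1:66468237-66468437, plus strand) was annotated to the 5'UTR alone. Of its 200 bases, 129 lie before the start of GENCODE transcript Unc80-201 and 0 before the start of the RefSeq gene, which begins further upstream. No peak of the 4 overlapped a second gene.

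**Figure D1:**
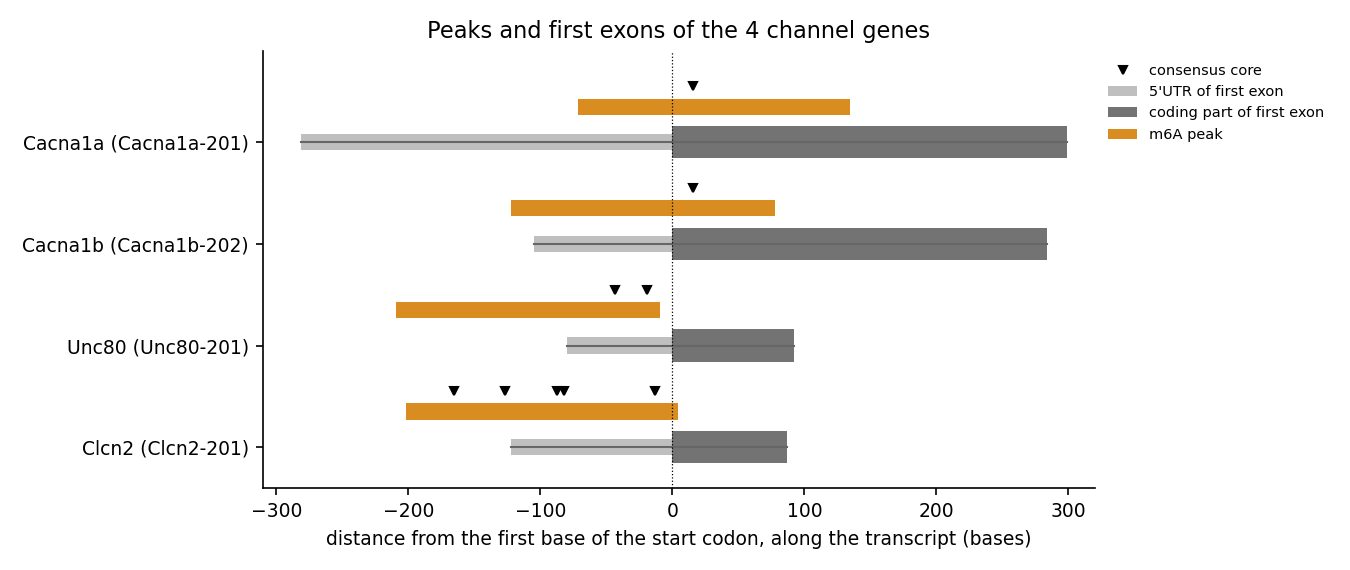
Each row shows 1 gene, with the distance in bases from the first base of the start codon on the horizontal axis. Grey bars are the first exon of the named GENCODE transcript, orange bars the m6A peak and triangles the consensus cores. The Cacna1a and Cacna1b peaks span the start codon, and the Unc80 and Clcn2 peaks lie almost wholly before it.

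The peaks were searched on the transcribed strand for the core of the m6A consensus, which is most often GGAC, with its variants AGAC, where the first base differs, GAAC, where the second differs, and AAAC, where both differ. Only these 4 bases were matched, whatever base follows, so a core here is not a match to a longer consensus. GGAC was present at least once in 68.4% of all listed peaks and any of these cores in 90.5%. Cacna1a held 0 of the most frequent core and 1 AGAC. Cacna1b held 1 GGAC and no variant. Unc80 held 1 GGAC, together with 1 variant with A in second place. Clcn2 held the most, with 4 copies of GGAC next to 1 variant with A in first place. On the opposite strand, Cacna1b held 2 GGAC and the others 0, where 52.9% of listed peaks held at least 1. In the paralogues Cacna1a and Cacna1b the single core sits at the same place of the reading frame, bases 15 to 18 counted from the A of the start codon. These first 21 bases (RefSeq assembly GRCm38.p6, core in capitals) are shown because they hold the only core of each peak at the same distance from the start codon, on chr8:84415645-84415665, plus strand, and chr2:24763027-24763047, minus strand.
Cacna1a: atggcccgctttggAGACgag
Cacna1b: atggtccgcttcggGGACgag

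The 2 stretches were identical at 18 of 21 bases and differed, from Cacna1a to Cacna1b, by C5T, T12C and A15G. The last of these is the first base of the core, which makes it AGAC in Cacna1a and GGAC in Cacna1b. The base that follows the core is G in both. In Unc80 both cores lie in the 5'UTR of Unc80-201, and in Clcn2 3 of the 5 cores lie in the 5'UTR of Clcn2-201 and 2 before its start. A window around the only GGAC of the Unc80 peak (chr1:66468413-66468442, plus strand) and one around the GGAC nearest the centre of the Clcn2 peak (chr16:20716068-20716097, minus strand) show 13 bases on either side of the core, which is in capitals.
Unc80: gggttctgcggtaGGACtcccgggagccac
Clcn2: gcctgggctgaggGGACgggacgggtgcgg

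The Clcn2 window holds a second GGAC, a single base after the one in capitals. Both are followed by G, and the GGAC of the Unc80 window by T. All 4 peaks were rich in G and C, with a GC content of 76.2% in Cacna1a, 79.0% in Cacna1b, 76.5% in Unc80 and 75.7% in Clcn2, against a median of 69.8% over all listed peaks and 76.7% over the 232 listed peaks at a 5'UTR or start codon. They held 24 to 29 CpG dinucleotides each, where such 5' peaks had a median of 28. The GC content of all 4 lay within the quartiles of these 5' peaks (72.5% and 79.7%), with Cacna1b near the upper one. A core in a peak is a match of letters and does not locate a methylated base.

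Values below are in CPM, the reads at a peak as a share of library size on the usual per-million scale, and use the effective library sizes that the authors' average abundance column implies, 12814321 to 16084217 reads in the young and 6158014 to 12534186 in the aged libraries. The young libraries differed from one another, and young library 2 was the closest to the aged ones. The listed peaks took up 5.47% of its effective size, as against 3.60% and 2.89% in young libraries 1 and 3 and 5.24% to 5.73% in the aged libraries. Over the 529 peaks, its counts differed less from those of the aged libraries (chi-square per degree of freedom 30.77, 19.01 and 35.01 for aged libraries 1 to 3) than from those of young library 1 (71.10) or 3 (230.25). Among the aged libraries, library 2, the smallest, gave the lowest such value with every young library. These values are not adjusted for read depth. Young library 1 was also closer to aged library 2 (43.46) than to young library 3 (64.38). Young library 3 was the furthest from the aged libraries (233.20, 133.54 and 196.22 for aged libraries 1 to 3). The fold changes below are therefore given with and without young library 2, and also without young library 3. The list holds only selected peaks, so the tissue could not be checked against its markers here: of 33 markers of hippocampal cell types, 5 were listed, with 0 of 8 neuronal and 0 of 5 astrocyte ones. Of the 8 peaks of these markers, 3 were higher and 5 lower in aged mice, where 78.8% of listed peaks were higher. Of the lower ones, 4 belong to 1 precursor marker gene, so the peaks do not count separate genes. The 8 peaks had 0 calls, where 1.13% of listed peaks were called higher and 0% lower. Their part in the results below was not tested.

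The comparison asks whether the reads at each peak differ between young and aged mice. At Cacna1a the young libraries, numbered 1 to 3, had 48.6, 91.9 and 25.9 CPM, and the aged libraries, in the same order, had 80.3, 69.7 and 78.8 CPM. Young library 2 was the highest of all 6 and young library 3 the lowest, so the ages overlapped. The means were 55.5 ± 33.5 CPM in young and 76.3 ± 5.76 CPM in aged mice (SD, n = 3), and the log2 fold change of 0.46 (SE 0.41) did not pass (edgeR quasi-likelihood adjusted p = 0.287). The young libraries spanned 3.54-fold and the aged ones 1.15-fold. An exact permutation test on the log2 values gave p = 0.4, where 3 against 3 libraries cannot go below 0.1.

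Cacna1b was read at 9.05, 19.2 and 10.4 CPM in the young libraries and 24.5, 20.3 and 23.8 CPM in the aged ones. All aged libraries lay above all young ones, by a margin of 5.7% between young library 2 and aged library 2. These neighbours rest on 246 and 125 reads, and their 95% exact Poisson intervals (16.9 to 21.8 and 16.9 to 24.2 CPM) overlap. The intervals cover counting error only. The means were 12.9 ± 5.51 CPM and 22.9 ± 2.25 CPM (SD, n = 3), and the log2 fold change was 0.83 (SE 0.35, edgeR adjusted p = 0.167, unadjusted p = 0.0316). This was the largest fold change of the 4, at the 89.2nd percentile of all listed peaks, and Cacna1b also had the fewest reads, 125 to 307 per library.

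The Unc80 peak had 53.8, 76.3 and 40.1 CPM in the young mice and 99.9, 77.5 and 111 CPM in the aged mice. The ages did not overlap, but young library 2 and aged library 2 were only 1.5% apart, within counting error (71.6 to 81.3 and 70.7 to 84.7 CPM). The means were 56.8 ± 18.3 and 96.2 ± 17.2 CPM (SD, n = 3), and the log2 fold change was 0.76 (SE 0.36, edgeR adjusted p = 0.167, unadjusted p = 0.0492). Unc80 had the widest spread among the aged libraries, 1.44-fold, and the narrowest among the young, 1.90-fold.

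The young mice had 24.5, 30.7 and 14.0 CPM at the Clcn2 peak, and the aged mice had 38.1, 36.5 and 32.9 CPM. The ages did not overlap, with 7.1% between young library 2 and aged library 3, whose intervals (27.7 to 33.9 and 29.2 to 36.9 CPM) overlap. The means were 23.1 ± 8.44 and 35.8 ± 2.68 CPM (SD, n = 3), and the log2 fold change was 0.64 (SE 0.33, edgeR adjusted p = 0.167, unadjusted p = 0.0758). It lies near the middle of the list, whose median log2 fold change was 0.59.

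**Figure D2:**
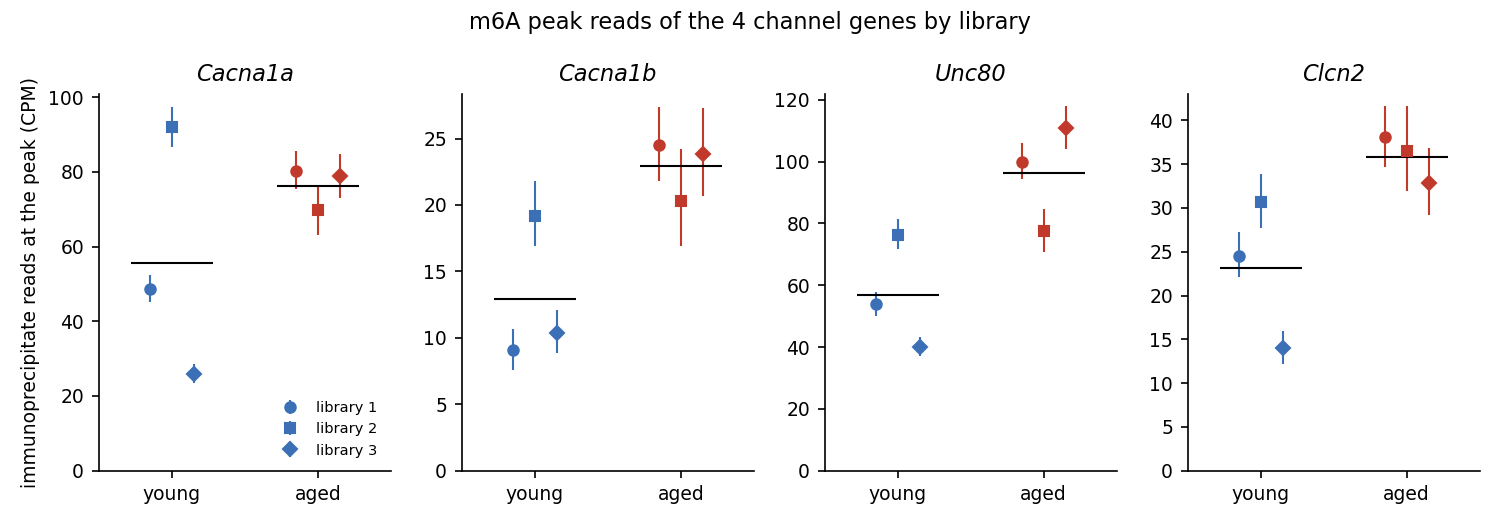
Points are CPM at the peak in each library (circle, square and diamond for libraries 1 to 3) with 95% exact Poisson intervals, and horizontal lines are the means of 3 libraries. At Cacna1a young library 2 (91.9 CPM) lies above all aged libraries, and at the other peaks it lies just below them.

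In all, 0 of 4 member peaks passed edgeR's quasi-likelihood test after Benjamini-Hochberg adjustment, where 1.13% of the 529 listed peaks had a call upward and 0% downward. With no adjustment, 2 of 4 (Cacna1b and Unc80) had p under 0.05 and were higher, against 17.2% of listed peaks, and 0 of 4 were lower, against 9.07%. With edgeR's likelihood ratio test or DESeq2's Wald test, after adjustment, 0 of 4 passed as well. The authors' fit had RUV, a correction for unwanted variation, as an option, which was not run here, so these counts are not those of their own test. The ages did not overlap at 3 of 4 members (exact permutation p = 0.1 each, the smallest that 3 against 3 can give), with all aged libraries above all young, as at 32.1% of listed peaks. The authors chose the list for a difference between these same libraries, so neither the direction nor these counts are independent evidence. All 4 fitted fold changes were above 0, as were 78.8% of those listed. Relative to the median of the list, the log2 fold changes were 0.25 for Cacna1b, 0.18 for Unc80, 0.05 for Clcn2 and -0.13 for Cacna1a.

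The members passed the test in the fit without young library 2 and in no other fit that was run. That library was the highest young library at 4 of 4 members, against 75.2% of listed peaks, and it exceeded every aged library at 1 of 4 (Cacna1a), against 29.7%. Its value was 2.46 times the mean of the other young libraries at Cacna1a, 1.98 times at Cacna1b, 1.62 times at Unc80 and 1.59 times at Clcn2. Without it, the log2 fold changes were 1.03 for Cacna1a (edgeR adjusted p = 0.00137), 1.24 for Cacna1b (0.000725), 1.04 for Unc80 (0.00119) and 0.90 for Clcn2 (0.00312). These 4 of 4 calls stand beside 77.5% of all listed peaks called higher in the same fit, with 19.5% called lower, so they do not set the channel genes apart. Leaving out the young library closest to the aged ones widens a difference by construction. Without young library 3 instead, Cacna1a had 0.12 (edgeR adjusted p = 0.733), Cacna1b 0.70 (0.301), Unc80 0.56 (0.307) and Clcn2 0.38 (0.395).

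**Figure D3:**
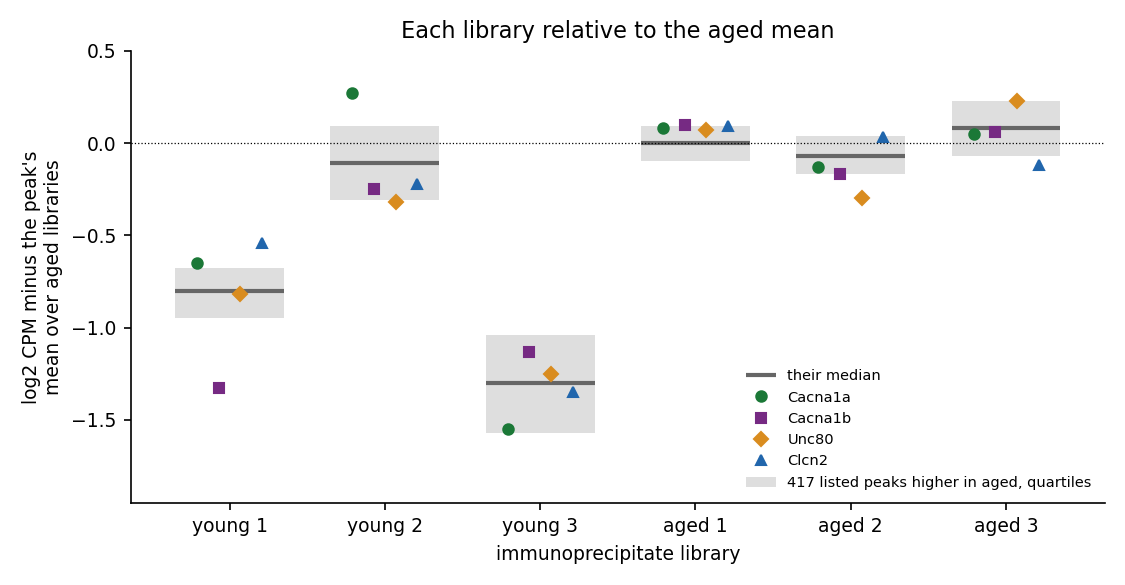
For each library, points show the log2 CPM of the 4 peaks minus the mean of that peak over the aged libraries, and grey bars and lines show the quartiles and median of the 417 listed peaks with higher aged values. Young library 2 (median -0.11) sits close to the aged libraries, and young libraries 1 and 3 (medians -0.80 and -1.30) lie below them.

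Set against the mean of the aged libraries, young library 1 was lower by a log2 difference of -1.33 at Cacna1b, which was the lowest young value there, but of only -0.54 at Clcn2, -0.65 at Cacna1a and -0.82 at Unc80. The listed peaks with higher aged values had a median of -0.80 in that library. At Cacna1a, Unc80 and Clcn2 young library 3 was the lowest of the young libraries, as at 69.2% of listed peaks. The coefficient of variation among young libraries was 60.4% at Cacna1a, 42.8% at Cacna1b, 36.6% at Clcn2 and 32.2% at Unc80, against a median of 38.6% over the list. Among aged libraries it was 7.55%, 9.84%, 7.47% and 17.9%, against a median of 12.9%.

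Ratios between peaks within a library do not depend on library size. The ratio of Cacna1a to Cacna1b, as reads per base of peak, was 2.38, 2.22 and 1.28 on the log2 scale in the young mice, again in library order, and 1.67, 1.74 and 1.68 in the aged mice. The SD of this log2 ratio was 0.03 among aged libraries and 0.60 among young ones. This pair had the widest such gap of the 6 pairs of members, so it is a selected extreme. Unc80 over Clcn2 went the other way (SD 0.34 in aged and 0.19 in young). The aged Cacna1b values rest on only 307, 125 and 208 reads. In aged library 2 the exact Poisson interval of Cacna1b was 16.9 to 24.2 CPM around 20.3 CPM. An SD of 0.03 over 3 libraries is smaller than such counting error. A tighter paralogue ratio with age therefore does not follow from it. Over the 6 pairs, the change of the log2 ratio from young to aged ran from -0.26 (Cacna1a over Cacna1b) to 0.20 (Cacna1b over Clcn2). All 6 pairs overlapped between ages, and none of the exact permutation tests went below p = 0.4. A difference in age response between members was thus not detectable with 3 libraries per age. By reads per base, Unc80 and Cacna1a were the upper members and Cacna1b the lowest one: Unc80 lay between the 73.3rd and 81.9th percentile of listed peaks in every library, and Cacna1b between the 9.3rd and 30.4th. Cacna1a ranged from the 54.3rd to the 77.5th and Clcn2 from the 27.2nd to the 48.8th. The order of Unc80 and Cacna1a turned in young library 2.

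Many listed peaks followed the same pattern over the 6 libraries. The Pearson r of log2 CPM exceeded 0.9 with 252 other peaks for Cacna1a, 225 for Clcn2, 218 for Unc80 and 130 for Cacna1b. These points share their libraries and the choice of the list, so r is given as a description. The peaks most like Cacna1a were in Cactin (r = 0.999), Syt7 (0.998) and Abca2 (0.998), which are annotated to exons or an intron. Those most like Cacna1b were at the 5' end of Tacc1 (0.989), Hivep2 (0.984) and Ppp2r5a (0.982), those most like Unc80 in Dip2c (0.994), Mesdc1 (0.993) and Garem (0.991), and those most like Clcn2 in Trim37 (0.993), Gnai2 (0.991) and Picalm (0.991). Between members, r ran from 0.81 (Cacna1a with Cacna1b, and Cacna1b with Clcn2) to 0.93 (Cacna1a with Clcn2).

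Few relatives of the members were listed. Of 10 pore-forming subunits of voltage-gated calcium channels, Cacna1a and Cacna1b were the 2 listed, and of 16 of their auxiliary subunits 0 were. Unc80 was the 1 listed of 7 symbols for the sodium leak channel complex, and Clcn2 the 1 listed of 25 symbols for chloride channels and partner proteins. Of 84 gene symbols in these and related groups, 7 were listed, the 4 members and 3 others. Some of the symbols are alternative names of the same gene. They had 7 peaks with a median log2 fold change of 0.76, against 0.59 over the list. All 7 were above 0, as were 78.8% of listed peaks. Of the 7, 0 passed the test, where 1.13% of listed peaks were called higher and 0% lower. A gene that is not in the list of differential peaks has no value here, so nothing follows about its methylation.

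The size of the age difference depended on the scaling. When the libraries were scaled on the listed peaks alone, by column totals, by TMM or by DESeq2's size factors, the median of the list moved by -0.46, -0.57 and -0.58 on the log2 scale, and the sign of Cacna1a turned with the last 2 of these (-0.03 with each). Cacna1b kept the highest value of the 4, with 0.37, 0.26 and 0.24. The non-overlapping members fell from 3 to 1 with column totals and to 0 with TMM and with DESeq2 size factors. Each of these scalings sets the typical listed peak near 0 by construction, with list medians of 0.14, 0.03 and 0.02. That 78.8% of listed peaks were above 0 holds under the recovered sizes. Which scaling fits the tissue better was not tested.

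**Figure D4:**
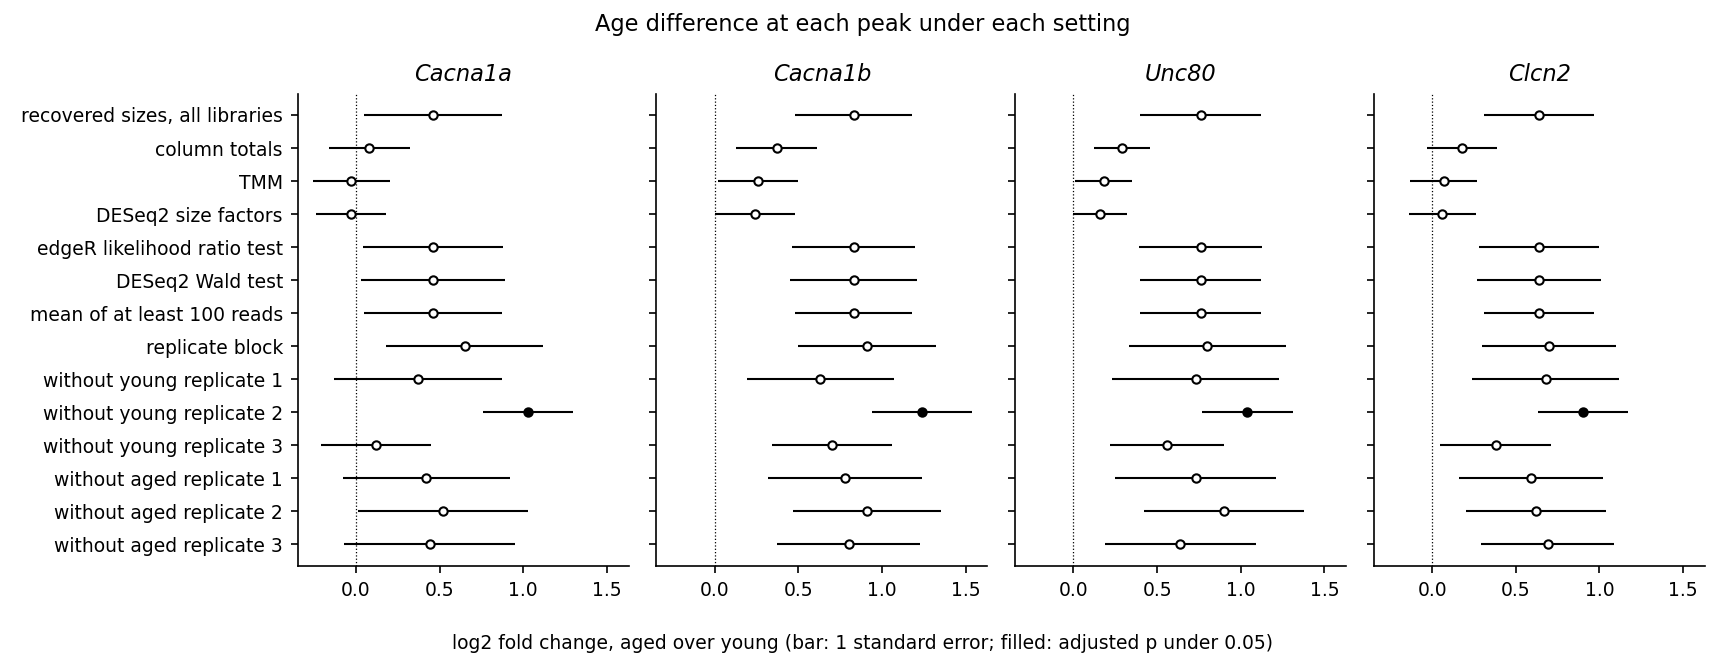
Points are log2 fold changes (aged over young) of each peak under each setting, with bars of 1 standard error and filled points where the adjusted p is under 0.05. The filled points are all in the fit without young replicate 2, at 0.90 to 1.24.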

How the data were processed

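The deposited table holds read counts per m6A peak in 6 immunoprecipitate libraries, which the authors did not normalize, for peaks they called differential; it has 862 rows for 529 unique peaks. Per the methods and the submitters' processing notes, reads were trimmed (Trimmomatic 0.36) and cleared of rRNA and PhiX reads (SortMeRNA or Bowtie2 2.2.7). They were aligned to mm10 (STAR 2.5.3a) and kept where uniquely mapped (SAMtools 1.3). Peaks were called over input (MACS2 2.2.1), counted (Subread 1.6.4) and annotated (bedtools 2.25.0). Called peaks were filtered on enrichment and recentred on their summits, and the listed ones had a median length of 201 bases (200 to 522). The base counts on either side of a start therefore reflect this window in part. Whether counting used strand is not given in the sources used here. The deposited average abundance is a log2 CPM from the authors' edgeR fit. The authors' log2 fold changes, likelihood ratio scores, p-values and adjusted p-values were not used.

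The abundance column alone gave the effective library sizes, by least squares on edgeR's average log2 CPM with 1 dispersion (0.0158). The recomputed abundance differed from the deposited one by at most 4.47e-09, so the scaling is the authors' own. The libraries held 322474 to 701150 reads in these peaks, with a median of 259 to 521 per peak. All 529 peaks were fitted with edgeR 4.0.16's quasi-likelihood F test (R 4.3.3; aged against young, no covariate, two-sided, Benjamini-Hochberg adjustment over 529 peaks at 0.05). The methods name a likelihood ratio test and, as an option, RUV, which takes out unwanted variation between libraries. The likelihood ratio test was run here as an alternative but without RUV, so it is not the authors' own fit. The other alternatives were DESeq2 1.42.0's Wald test, other scalings, a mean of at least 100 reads, a replicate block and each library left out. The fit and the size recovery were run on data simulated at the dispersion of 0.0158, a biological coefficient of variation of 12.6%. Young libraries had a median coefficient of variation of 38.6% over the list, so the simulation does not cover their spread. Sequences were read from GRCm38.p6, the assembly of mm10, as if starts count from 0, and transcripts from GENCODE M21 (Python 3.11.15, pandas 2.3.3, SciPy 1.17.1). The members and gene lists were chosen with earlier results of these data known. The rule for named genes took the members, the listed genes of the channel lists and the 3 most similar peaks per member. Of the listed genes, 3 that are not members are not reported here by name.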

Additional observations from a re-analysis of the deposited data

How the results depend on the processing

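Of 52 alternative fits of the 4 member peaks, 46 kept both the direction and the side of the threshold, which for these peaks means that they stayed without a call. Cacna1a turned to -0.03 with TMM and to -0.03 with DESeq2 size factors. All 4 members passed without young library 2 and in no other fit, where the adjusted p ran from 0.148 to 0.999. With each library left out in turn, the log2 fold change ran from 0.12 to 1.03 for Cacna1a, from 0.63 to 1.24 for Cacna1b, from 0.56 to 1.04 for Unc80 and from 0.38 to 0.90 for Clcn2; calls over the list ran from 4 to 410 higher and from 0 to 103 lower. Against 6 higher and 0 lower calls, the likelihood ratio test gave 11 and 1, DESeq2's Wald test 11 and 1, and column totals, TMM and DESeq2 size factors gave 3, 87 and 45 lower calls. Listed peaks with all aged libraries above all young numbered 170, against 54 with column totals, 22 with TMM and 24 with DESeq2 size factors, and among members 3, against 1, 0 and 0. Same-numbered libraries did not deviate together (r = -0.20, -0.04 and -0.03). With 3 libraries per age and peaks selected for an age difference, these values cannot exclude a pairing. With the replicate block the members had 0.65, 0.91, 0.80 and 0.70 for Cacna1a, Cacna1b, Unc80 and Clcn2, none past the threshold, and 6 higher and 1 lower peaks were called. Counting starts from 1 changed no number of cores in the members. Cacna1b, with 125 reads in its shallowest library, is the member that depth limits most.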
